A study of Mus musculus with 6 samples.

Results

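The enzymes of glycolysis and of glycogen metabolism were followed in the gastrocnemius of young and old male mice through the transcripts of 33 genes, of 20906 genes tested in all. The list was drawn up by enzyme name, and its members were found on the arrays through the RefSeq accession of each probe. All 33 members had a probe, 53 probes in all, and all 33 passed the filter on dim probes, which kept probes that the scanner software called well above background on 3 or more of the 6 arrays. The 20906 called genes here include transcripts that matched no single gene symbol, each counted under its name on the array. The young group was 3 samples from males aged 13 weeks and the old group 3 samples from males aged 25 months, and its title describes the old muscle as atrophied by aging. No treatment or genotype is named in the labels, and the strain is not given in the sources used here. Cy3-labelled RNA of every sample was read on its own Agilent array of a single colour. Whether the 3 samples of an age are 3 animals is not stated in the labels, so the p-values cover the spread among samples only, and part of that spread may be technical.

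Glycolysis splits glucose into pyruvate and yields ATP without oxygen, and fast fibres, which make up most of the gastrocnemius, depend on it for brief strong contractions. Glycogen is the glucose store of the fibre. It is built by glycogenin, glycogen synthase and the branching enzyme, and is broken down by glycogen phosphorylase, which phosphorylase kinase switches on. Several steps are carried out by isoforms from separate genes, one of which predominates in adult muscle (Pfkm, Aldoa, Pgam2, Eno3, Ldha, Pygm and, among hexokinases, the insulin-responsive Hk2) while others predominate in liver, brain, heart or dividing cells (Hk1, Pfkl, Pfkp, Aldoc, Pgam1, Eno1, Ldhb and Pygb).

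No member passed limma's test between old and young muscle at an adjusted p under 0.05, where 0.254% of all genes did, 0.196% higher and 0.0574% lower in old muscle. The members nevertheless leaned to lower signals in old muscle. Of the 33, 26 had a negative log2 difference, beside 56.9% of all genes, and their median was -0.23 beside -0.06 for all genes. In 7 members the 3 old values all lay below the 3 young values, which held for 13.9% of all genes, and in 2 members, Aldoc and Pfkp, all lay above, which held for 7.93%. Before adjustment, limma's p lay under 0.05 for 2 members with lower signals (Pfkfb1 and Phkb), beside 8.39% of all genes, and for 2 with higher signals (Aldoc and Pfkp), beside 6.07%. All 7 muscle isoforms had a negative difference, with a median of -0.26, but 5 of the 7 did without old replicate 1 and 6 of the 7 with quantile normalization. Those 6 include Aldoa, at -3.1e-15 with quantile normalization, which is no difference beyond rounding. Of the 8 non-muscle isoforms 4 had a negative difference, with a median of 0.06.

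The arrays and the tissue bear on these values as follows. The share of gene spots well above background was 49.9% to 54.8% per array, with 0 saturated spots. One array, old replicate 1, differed in quality: its spike-in controls had a slope of 0.840, where the remaining arrays had 0.925 to 0.941. Where leaving it out turned a member's direction or moved its value by more than 1.5 times, the value without it is given. Of 13 fast fibre markers 13 were tested, 12 of them well above background on all 6 arrays, and 0 passed limma's adjusted threshold, with 1 lower at an unadjusted p under 0.05, beside 8.39% of all genes. Their summed signal, in units of each array's 75th percentile, ran from 8889.7 to 10516.3 on the young arrays and from 6713 to 8999 on the old. The summed signal of 7 slow fibre markers ran from 1337 to 1782 in young and from 804 to 1238 in old muscle. The part of these shifts in the members' values was not tested. In bulk tissue fewer cells of a type and less RNA per cell cannot be told apart.

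Most members are among the brightest probes on the array. Of the 33, 26 lay above the 75th percentile of all genes by mean signal, and 12 lay at or above the 99th percentile. Above the 75th percentile 65.0% of all genes had a negative difference, with a median of -0.10, and 18.7% had old values wholly below young. The 26 members there had a median of -0.24, and 6 of them were wholly below. On old replicate 1 the median of all genes in that bright group lay 0.18 below the young mean on the log2 scale, against 0.02 below on old replicate 2 and 0.09 below on old replicate 3. The median of the 33 members lay 0.28, 0.13 and 0.12 below the young mean on the same arrays. The lean of the members was thus largest on old replicate 1, where bright genes as a whole were lowest. Without old replicate 1 the median of the members was -0.15, with 24 of 33 negative beside 54.2% of all genes. With that array left out, 1 member passed limma's adjusted threshold as higher and 0 as lower, beside 0.908% of all genes in either direction, 0.444% higher and 0.464% lower. Before adjustment 3 members were higher and 4 lower, beside 7.23% and 10.9%, and 3 members lay wholly above and 10 wholly below the young arrays, beside 15% and 23.5%. With quantile normalization the median was -0.094, beside -0.046 for all genes, and 24 of 33 were negative, beside 11609 of 20906. The 24 include Aldoa, whose -3.1e-15 there is only a rounding remainder. There 3 of 33 members lay wholly below young, beside 2786 of 20906 genes, and none of these was a muscle isoform. The median of the 7 muscle isoforms was -0.13 without old replicate 1 and -0.07 with quantile normalization, where they ran from -0.13 to 0.039.

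**Figure D1:**
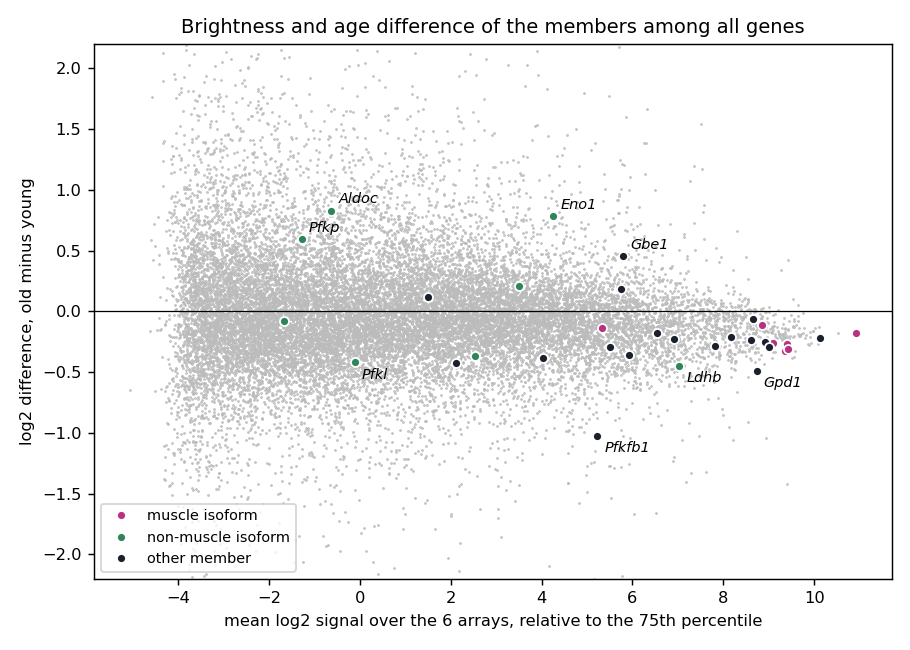
Log2 difference of old minus young (vertical) against the mean log2 signal over the 6 arrays relative to the array's 75th percentile (horizontal) for all 20906 genes (grey), with the members in colour; values beyond 2.2 in size are off the plot. All muscle isoforms except Hk2 sit at the bright end, slightly below 0, and Aldoc, Pfkp and Eno1 sit above 0 at lower brightness.

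**Figure D2:**
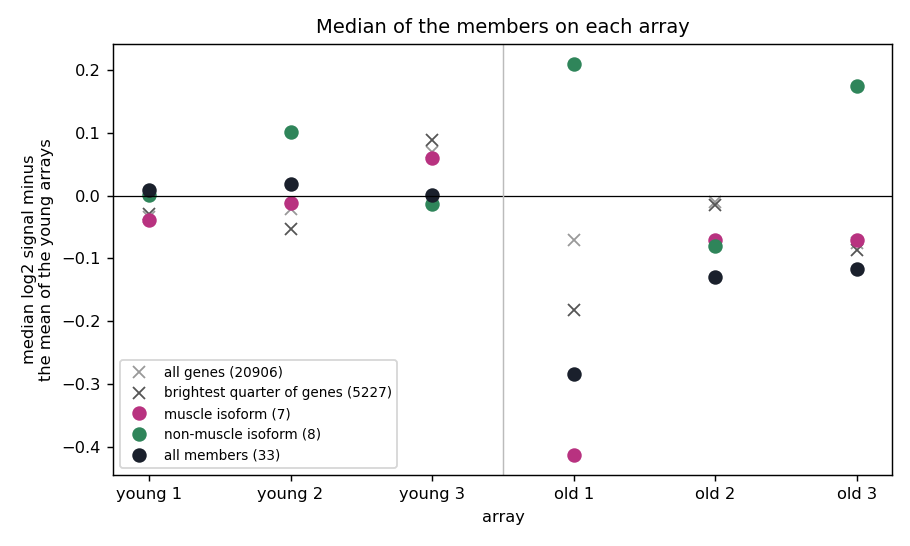
Median log2 signal on each array, relative to each gene's mean over the 3 young arrays, for all genes, the genes above the 75th percentile of brightness, all members and the muscle and non-muscle isoforms (numbers of genes in the legend). Old replicate 1 has the lowest median for all members, -0.28, and for the 7 muscle isoforms, -0.41.

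Because the isoforms of a step are read on the same array, the muscle isoform minus its non-muscle counterpart was taken on each array, and old was compared with young. The level of one probe cannot be set against that of another, so only the difference between the ages is read. Of 8 such pairs, 5 moved towards the non-muscle isoform, and in 2 of them, Aldoa with Aldoc and Pfkm with Pfkp, the old and young arrays did not overlap. These pairs hold Aldoc and Pfkp, the 2 members already counted as wholly above young. Among single genes 13.9% lay wholly below and 7.93% wholly above young, and no such share was taken over other pairs of genes. The promoters of the 2 pairs without overlap and of the enolase pair are printed because these 3 of the 8 pairs differed most between the ages. Each is the run of 250 bases before the most upstream start in the RefSeq table of build GRCm38.p6, written 5′ to 3′ on the gene's strand. The table does not say which start muscle uses. Capitals mark matches to the motifs named after the sequences.
Aldoa, chr7:126800448-126800697, minus strand: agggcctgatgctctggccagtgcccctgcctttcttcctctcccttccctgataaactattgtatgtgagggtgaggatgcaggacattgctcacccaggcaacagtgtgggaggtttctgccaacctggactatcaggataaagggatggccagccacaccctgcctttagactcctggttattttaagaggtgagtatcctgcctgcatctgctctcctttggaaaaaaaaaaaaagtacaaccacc
Aldoc, chr11:78322823-78323072, plus strand: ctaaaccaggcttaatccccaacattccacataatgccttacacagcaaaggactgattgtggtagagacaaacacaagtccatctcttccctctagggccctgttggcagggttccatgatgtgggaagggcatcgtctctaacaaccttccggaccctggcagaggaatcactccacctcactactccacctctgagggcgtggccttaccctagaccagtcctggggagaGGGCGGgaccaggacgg
Pfkm, chr15:98092339-98092588, plus strand: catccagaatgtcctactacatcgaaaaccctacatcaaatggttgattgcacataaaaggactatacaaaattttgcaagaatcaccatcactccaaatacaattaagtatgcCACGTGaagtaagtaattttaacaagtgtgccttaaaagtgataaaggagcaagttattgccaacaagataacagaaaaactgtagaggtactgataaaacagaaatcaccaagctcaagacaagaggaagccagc
Pfkp, chr13:6648772-6649021, minus strand: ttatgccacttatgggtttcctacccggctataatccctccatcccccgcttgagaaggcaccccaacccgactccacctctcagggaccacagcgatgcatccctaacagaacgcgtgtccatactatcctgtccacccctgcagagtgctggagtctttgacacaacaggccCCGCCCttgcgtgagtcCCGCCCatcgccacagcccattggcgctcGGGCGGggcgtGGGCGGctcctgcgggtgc
Eno3, chr11:70656926-70657175, plus strand: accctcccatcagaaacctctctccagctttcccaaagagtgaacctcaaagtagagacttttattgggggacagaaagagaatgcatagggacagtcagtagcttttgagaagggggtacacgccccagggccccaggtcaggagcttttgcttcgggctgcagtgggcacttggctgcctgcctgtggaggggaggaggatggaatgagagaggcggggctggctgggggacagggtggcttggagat
Eno1, chr4:150236458-150236707, plus strand: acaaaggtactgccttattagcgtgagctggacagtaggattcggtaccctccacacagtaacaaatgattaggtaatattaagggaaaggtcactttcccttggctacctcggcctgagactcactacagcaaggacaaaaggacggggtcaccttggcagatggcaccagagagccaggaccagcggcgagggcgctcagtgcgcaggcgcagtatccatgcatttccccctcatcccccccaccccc

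Windows of this kind were found for 32 of the 33 members, 49 windows in all since some genes have several starts, and were searched on both strands. The hypoxia response core ACGTG was in 32.7% of the members' windows and in 16.6% of all 32851 windows. The E-box CACGTG, which contains that core, was in 8.16% and 6.02%. The E-box CAGCTG, of the type that myogenic factors bind, was in 18.4% and 13.0%, and the GC box GGGCGG in 46.9% and 32.7%. A loose form of the MEF2 site (CTA and TAG with any 4 bases between) was in 4.08% and 3.20%. The matches in the members' windows all held a G or C among those 4 bases. None was thus the stricter site with only A or T there, and sites ending in TAA were not searched for. The MEF3 site TCAGGTT was in 2.04% and 3.49%, and the TATA box TATAAA in 2.04% and 12.4%. The members' windows had a median GC content of 59.2% against 52.4% over all windows, and windows of one gene overlap, so these shares are descriptions. Among the 6 printed, that of Pfkp held 4 GC boxes, that of Aldoc 1, and that of Pfkm 1 CACGTG. Windows of other starts of Aldoa and of Eno1, not printed, also held GC boxes, so these counts depend on the start chosen.

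Aldolase splits fructose bisphosphate into triose phosphates, and Aldoc is the form known from brain. Aldoc had log2 signals of -1.05, -1.28 and -0.80 on young replicates 1 to 3 and of -0.46, -0.10 and -0.09 on old replicates 1 to 3, relative to each array's 75th percentile, as are all signals here. All 3 old arrays were above all young arrays. Aldoc was thus 1.78-fold higher in old muscle (log2 difference 0.83 ± 0.20, SE here and below, 3 arrays per age), with limma's adjusted p = 0.165. Aldoa, the brightest member, read 10.80, 10.999 and 11.24 in young and 10.60, 10.94 and 10.96 in old muscle, with overlapping ages and a log2 difference of -0.18 ± 0.19 (-0.06 without old replicate 1). Aldoa minus Aldoc was at -0.998, -1.015 and -1.006 on the 3 old arrays relative to the young mean, while the young arrays ran from -0.20 to 0.22 around it. The pair differed by -1.01 ± 0.12 between the ages (exact permutation test, two-sided, p = 0.1, the smallest that 3 against 3 arrays allow, and 0.367 adjusted over the 11 pairs compared). It was -1.01 without old replicate 1. With quantile normalization it was -0.82, but there Aldoa differed by -3.1e-15, no more than rounding, and Aldoc by 0.82. That value is thus a reading of Aldoc alone and no check on the pair. The difference of Aldoc alone, 0.83, was larger in size than that of Aldoa, -0.18.

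Phosphofructokinase is the main control point of glycolysis, with Pfkm as the muscle subunit, Pfkl as the liver subunit and Pfkp as the platelet subunit. Pfkm read 9.51, 9.57 and 9.46 in young and 9.02, 9.27 and 9.25 in old muscle. The old arrays were all below the young, by 1.25-fold (-0.33 ± 0.15, limma's adjusted p = 0.390), and the difference was -0.13 with quantile normalization, where the ages overlapped. Pfkm is printed 10 times on the array, and the SD of its spots within an array was 0.04 to 0.10 on the log2 scale. Pfkp was dim and read -1.54, -1.43 and -1.75 in young and -1.12, -1.14 and -0.68 in old muscle. Each old array was above each young one, and the signal was 1.51-fold higher (0.59 ± 0.19, limma's adjusted p = 0.261), but the gene's other, dimmer probe gave -0.12 ± 0.32. Pfkm minus Pfkp differed by -0.92 ± 0.15 (exact permutation test, two-sided, p = 0.1, adjusted 0.367), with the old arrays at -0.94, -0.67 and -1.15 relative to the young mean and the young between -0.08 and 0.12. It was -0.56 when the probes of a gene were averaged. Pfkl, by contrast, read -0.32, 0.41 and 0.21 in young and 0.13, -0.54 and -0.55 in old muscle, with overlapping ages (-0.42 ± 0.28, and -0.65 without old replicate 1). Pfkm minus Pfkl gave 0.09 ± 0.37, a difference without a settled sign. It was 0.40 without old replicate 1, -0.046 with normexp background correction, -0.063 without old replicate 2 and -0.52 when the slide row was a block.

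Enolase forms phosphoenolpyruvate, with Eno3 as the muscle form and Eno1 as the form of most other tissues. Eno1 read 4.08, 3.72 and 3.80 in young muscle and 3.62, 5.18 and 5.14 in old muscle. Old replicates 2 and 3 were above all young arrays, whereas old replicate 1 was below all of them. The log2 difference was 0.78 ± 0.43 (limma's adjusted p = 0.443) and became 1.30 ± 0.19 without old replicate 1 (limma's adjusted p = 0.0479, where 0.444% of all genes passed as higher). In that fit age and slide row cannot be told apart, since both remaining old arrays lay in a row without young arrays. Eno1 was the 1 member that passed in any of the settings tried. Eno3 read 9.34, 9.58 and 9.71 in young and 9.01, 9.49 and 9.33 in old muscle, with overlapping ages (-0.27 ± 0.20, and -0.13 without old replicate 1). Eno3 minus Eno1 differed by -1.05 ± 0.43, with old replicate 1 among the young arrays, by -1.43 without it and by -0.29 with the slide row as a block.

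The other pairs overlapped between the ages. Phosphoglycerate mutase moves the phosphate of phosphoglycerate. Its muscle form Pgam2 read 9.21, 9.19 and 9.25 in young and 8.37, 9.24 and 9.26 in old muscle, so that its difference (-0.26 ± 0.26) came from old replicate 1 alone and was 0.03 without it. Pgam1 read 3.41, 3.13 and 3.66 in young and 3.25, 3.59 and 3.98 in old muscle (0.21 ± 0.24, and 0.38 without old replicate 1), and Pgam2 minus Pgam1 gave -0.47 ± 0.21. Hexokinase traps glucose in the cell as its phosphate. Hk1 read 2.62, 2.78 and 2.76 in young and 2.19, 2.38 and 2.49 in old muscle, all old arrays being lower, by 1.29-fold (-0.37 ± 0.16, limma's adjusted p = 0.357), and its dimmer probe gave -0.33 ± 0.23. Hk2 read 5.67, 5.34 and 5.22 in young and 5.29, 5.11 and 5.40 in old muscle (-0.14 ± 0.19), and Hk2 minus Hk1 gave 0.23 ± 0.21, away from the non-muscle form.

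Lactate dehydrogenase turns pyruvate into lactate, and Ldhb is its heart subunit, also found in oxidative fibres. Ldha read 8.86, 8.88 and 8.96 in young and 8.53, 9.01 and 8.83 in old muscle (-0.11 ± 0.18, and 0.017 without old replicate 1), and its other probes gave -0.31 ± 0.38 and 0.39 ± 0.62. Ldhb read 7.07, 7.72 and 6.95 in young and 7.63, 6.48 and 6.28 in old muscle. Young replicate 2 and old replicate 1 were the highest, and the ages overlapped (-0.45 ± 0.40). Without old replicate 1 both remaining old arrays were below all young arrays (-0.87 ± 0.27, limma's adjusted p = 0.189), and Ldha minus Ldhb moved from 0.34 ± 0.60 to 0.88. With the slide row as a block the sign of this pair turned, to -0.76. The slow fibre markers were lower in old muscle beside Ldhb, with a median of -0.58 over 7 genes (-0.69 without old replicate 1), 0 of them past limma's adjusted threshold and 3 lower at an unadjusted p under 0.05, beside 8.39% of all genes. Their part in the value of Ldhb was not tested.

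**Figure D3:**
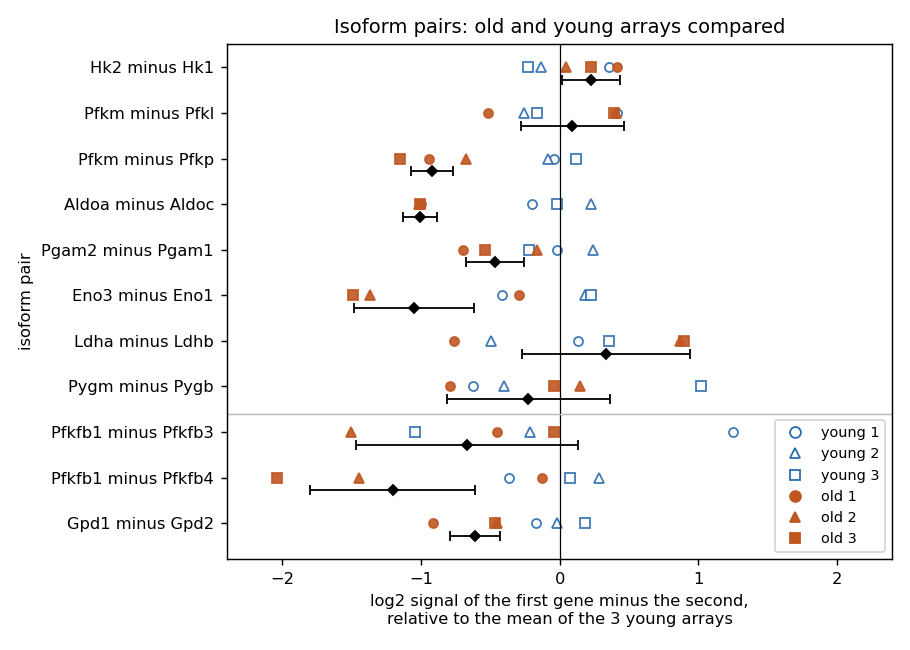
Log2 signal of the first gene of each pair minus the second on every array, relative to the mean of the 3 young arrays (open symbols young, filled symbols old; black diamonds give the difference between the ages with its SE). The old arrays lie wholly to the left of the young for Pfkm minus Pfkp, Aldoa minus Aldoc and Gpd1 minus Gpd2, and old replicate 1 departs from the other old arrays for Eno3 minus Eno1 and Ldha minus Ldhb.

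The summed signals of macrophage and of neutrophil markers were higher on the old arrays. Of the 8 non-muscle isoforms, 4 had positive differences (Aldoc, Pfkp, Eno1 and Pgam1) and 4 negative ones (Hk1, Pfkl, Ldhb and Pygb). Of 9 macrophage markers tested, of 10 listed, 0 passed limma's adjusted threshold and 6 were higher at an unadjusted p under 0.05, beside 6.07% of all genes. In 8 of them old values lay wholly above young, beside 7.93% of all genes, and Csf1r gave -0.05 ± 0.16. Their summed signal ran from 27.7 to 30.3 in young and from 34.7 to 41.5 in old muscle. That of 4 tested neutrophil markers ran from 0.837 to 1.39 and from 16.5 to 24.6, with Ly6g and Mpo below the filter on dim probes. Of these, S100a8 and S100a9 passed limma's adjusted threshold as higher, while Camp gave -0.40 ± 0.15, with old values wholly below young. All 3 old arrays lay above all young arrays in both sums, old replicate 1 highest, while Eno1 on old replicate 1 lay below all young arrays. The summed signal of 6 endothelial markers ran from 31.1 to 34.7 in young and from 21.4 to 29.9 in old muscle. A sum follows its brightest markers, and of these 6, 3 had negative and 3 positive differences. Only 1, Cdh5, lay wholly below young, beside 13.9% of all genes. The sum of 7 Schwann cell and nerve markers ran from 24.3 to 44.2 in young and from 24.4 to 41.4 in old muscle. Of them 5 were negative and 2 positive, with 1, Prx, past the adjusted threshold as lower. For 6 fibroblast markers the sums, led by the brightest, Dcn (-0.85 ± 0.34), were 369 to 423 and 167 to 329. Of these 6, 5 were negative and 1, Dpt, was positive (0.81 ± 0.52). For 5 adipocyte markers the sums were 98.99 to 108.6 and 79.5 to 100.2. For 3 erythroid markers they were 146 to 226 and 52.7 to 111, and for 3 satellite cell markers 1.69 to 2.86 and 2.31 to 3.88. The part of these cells in the isoform values was not tested.

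The steps that have one main gene each had negative differences. Gpi1 (glucose phosphate isomerase), Tpi1 (triose phosphate isomerase), Gapdh (glyceraldehyde phosphate dehydrogenase), Pgk1 (phosphoglycerate kinase) and Pkm (pyruvate kinase) had log2 differences of -0.25, -0.29, -0.22, -0.23 and -0.07, each with limma's adjusted p of at least 0.527. Without old replicate 1 those of Gpi1, Tpi1, Pgk1 and Pkm were -0.14, -0.13, -0.19 and -0.012. The sign of Pkm was not settled, since it was 0.081 with quantile normalization and 0.058 without young replicate 2. Of these, Gapdh had old values wholly below young, at 10.17, 10.25 and 10.30 in young against 9.78, 10.15 and 10.12 in old muscle. Its 7 probes all gave negative differences, from -0.38 to -0.10, and the gene has near-identical processed copies in the genome, which its probes may also read. Gapdh, often used as a reference transcript, was 1.16-fold lower (-0.22 ± 0.17), and -0.10 ± 0.16 without old replicate 1. Its difference was -0.06 with quantile normalization, where the ages overlapped. The 3 probes of Gpi1 gave -0.25 to -0.18 and both probes of Tpi1 gave -0.37 and -0.29.

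The shuttle between glycolysis and the mitochondrion uses the cytosolic glycerol phosphate dehydrogenase Gpd1 and the mitochondrial Gpd2. Gpd1 read 9.07, 8.78 and 9.08 in young and 7.91, 8.81 and 8.73 in old muscle (-0.49 ± 0.27, limma's adjusted p = 0.452). Its old values reached those of the young on old replicate 2, and without old replicate 1 the difference was -0.20 ± 0.18. Gpd2 read 1.71, 1.26 and 1.36 in young and 1.29, 1.73 and 1.67 in old muscle (0.12 ± 0.20, and 0.26 without old replicate 1). Gpd1 minus Gpd2 was lower on every old array than on any young array, by -0.61 ± 0.18 (exact permutation test, two-sided, p = 0.1, adjusted 0.367), and by -0.46 without old replicate 1.

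All 5 genes of glycogen breakdown had a negative difference. Pygm, the muscle glycogen phosphorylase, read 9.49, 9.60 and 9.65 in young and 9.19, 9.36 and 9.26 in old muscle. All old arrays were below all young arrays, by 1.24-fold (-0.31 ± 0.15, limma's adjusted p = 0.398), and by -0.27 ± 0.16 without old replicate 1. With quantile normalization the difference was only -0.12 and the ages overlapped. Pygb, the brain form, read -1.09, -1.20 and -2.57 in young and -1.22, -1.99 and -1.90 in old muscle (-0.08 ± 0.43, and -0.33 without old replicate 1). Pygm minus Pygb gave -0.23 ± 0.59, 0.053 without old replicate 1 and -0.79 with the slide row as a block. Phosphorylase kinase has regulatory subunits, Phka1 and Phkb, and the catalytic subunit Phkg1. Phkb read 4.29, 4.11 and 4.26 in young and 3.96, 3.76 and 3.78 in old muscle. Its old arrays were all lower, by 1.31-fold (-0.39 ± 0.15, limma's adjusted p = 0.327), but its dimmer probe gave 0.37 ± 0.40, and averaging the probes left -0.01. Phka1 gave -0.29 ± 0.19 and Phkg1 -0.30 ± 0.23, with old replicate 1 lowest in both, and -0.15 and -0.07 without it.

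The genes of glycogen synthesis did not share a direction. The branching enzyme Gbe1 read 5.41, 5.96 and 5.32 in young and 6.04, 5.72 and 6.30 in old muscle, a positive difference of 0.45 ± 0.24 (limma's adjusted p = 0.437) with overlapping ages. Glycogenin (Gyg), which primes the chain, had all old values below young (-0.21 ± 0.16, and -0.15 by its other probe). With quantile normalization its difference was -0.08 and the ages overlapped. Ugp2, which makes UDP-glucose, gave -0.23 ± 0.18 (-0.35 without old replicate 1). Glycogen synthase (Gys1) gave -0.18 ± 0.37 (-0.54 without old replicate 1), and its probes both showed the lowest young value on young replicate 3 and the highest value of all on old replicate 1. The adjusted p in limma's test was at least 0.437 for each of the 4.

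The largest difference of any member was that of Pfkfb1. It encodes a form, known from liver and muscle, of the bifunctional enzyme that makes and removes a signal that activates phosphofructokinase. That signal is a fructose bisphosphate, but an isomer of the one that aldolase splits. Pfkfb1 read 5.79, 5.94 and 5.49 in young and 5.33, 4.21 and 4.62 in old muscle. All old arrays were below all young arrays, with old replicate 1 closest to them, and the signal was 2.03-fold lower (-1.02 ± 0.30, limma's adjusted p = 0.229). With quantile normalization the difference was -0.94 and the ages overlapped. Without old replicate 1 the difference was -1.33 ± 0.22 (limma's adjusted p = 0.0652). Over the settings tried it ran from -1.33 to -0.41, the last with the slide row as a block, since the row of the young arrays holds no old array besides old replicate 1.

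The other genes of this control point varied more within an age than between ages. Pfkfb3, the inducible form, read 4.89, 6.51 and 6.89 in young and 6.14, 6.07 and 5.01 in old muscle (-0.36 ± 0.56, -0.56 without old replicate 1, and -0.76 ± 0.42 by its dimmer probe). Pfkfb4 read 6.07, 5.58 and 5.34 in young and 5.38, 5.58 and 6.58 in old muscle (0.18 ± 0.36, and 0.41 without old replicate 1). Pfkfb1 minus Pfkfb3 gave -0.67 ± 0.80 and Pfkfb1 minus Pfkfb4 gave -1.20 ± 0.60, with overlapping ages in both. The latter was -1.74 without old replicate 1 and -0.13 with the slide row as a block. Fbp2, the muscle fructose bisphosphatase, gave -0.43 ± 0.45 (-0.23 without old replicate 1).

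**Figure D4:**
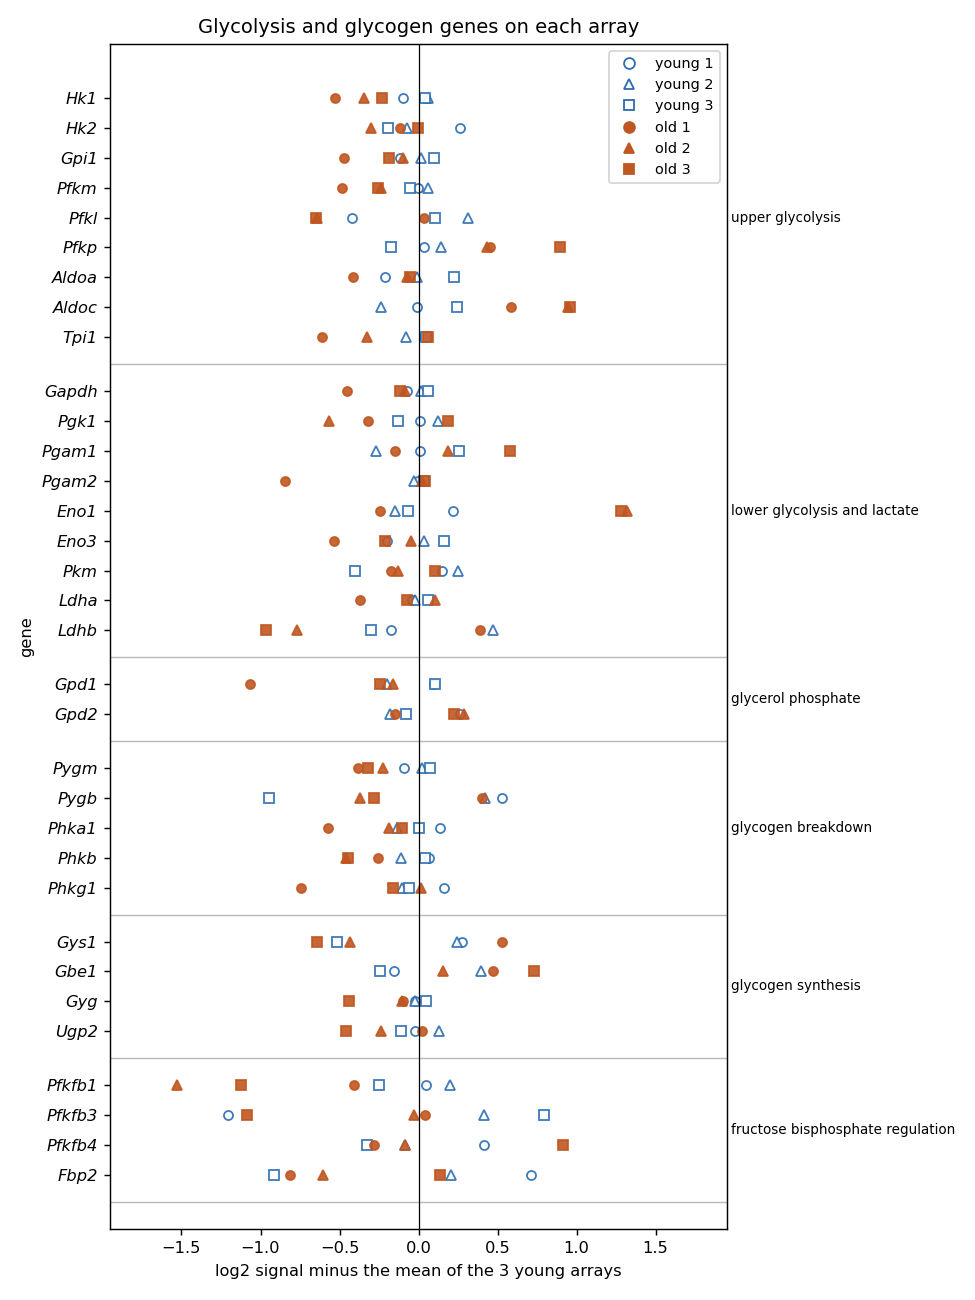
Log2 signal of each of the 33 members on every array, relative to the mean of its 3 young arrays, grouped by role in the pathway (open symbols young, filled symbols old). Pfkfb1 lies lowest in old muscle and Aldoc lies wholly above the young arrays; old replicate 1 (filled circle) is the lowest array for 14 of the 33 members, against 1 to 6 for each other array.

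Among other genes of the pathway, 4 lists were read in the same fit, and 0 of their tested members passed limma's adjusted threshold. Before adjustment, limma's p was under 0.05 for 3 glycogen handling genes, 4 pyruvate and lactate genes and 3 genes of glucose entry, all lower, and for 1 other isozyme, Adpgk, higher, beside 8.39% of all genes lower and 6.07% higher. Among the 4 lists, the genes that decide the fate of pyruvate and lactate leaned lowest. Of 15, 13 had a negative difference, with a median of -0.30, and 8 had old values wholly below young, beside 13.9% of all genes. All 8 lay above the 75th percentile by mean signal, where 65.0% of all genes were negative and 18.7% wholly below. The list was not read with quantile normalization. Dlat, a subunit of pyruvate dehydrogenase, was 1.60-fold lower (-0.68 ± 0.16, limma's adjusted p = 0.152). Slc16a3, a lactate exporter of glycolytic fibres, was 1.74-fold lower (-0.80 ± 0.19, 0.161) and Mpc2, of the mitochondrial pyruvate carrier, 1.36-fold lower (-0.45 ± 0.15, 0.275). Without old replicate 1 the median of this list was -0.42, so it did not share the dependence of the members' median on that array.

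In the glycogen handling list 9 of 14 tested genes were negative (median -0.20), beside 56.9% of all genes, and 5 were wholly below young, beside 13.9%. Ppp1r3a, which targets protein phosphatase to glycogen in muscle, was 1.84-fold lower (-0.88 ± 0.22, limma's adjusted p = 0.174). The synthase kinase Gsk3b gave -0.72 ± 0.26. In the list of glucose entry and regulators 8 of 12 were negative (median -0.23) and 3 were wholly below young. The insulin-responsive transporter Slc2a4 gave -0.42 ± 0.16 and the nuclear receptor Esrra -0.51 ± 0.18, each with old values wholly below young. Of the other isozymes, 10 of 18 were tested and 5 were negative (median 0.04). Adpgk, a glucokinase that uses ADP, gave 0.42 ± 0.17 with old values wholly above young, and the neuronal enolase Eno2 gave 0.65 ± 0.28 with overlapping ages.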

How the data were processed

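The authors deposited one scanner file per array whose processed signal is an intensity on a linear scale, after background subtraction in Agilent Feature Extraction 11.0.1.1, per the file headers (9.5 per the submitters' processing notes). The grid names mm9, so no coordinates of probes are given. The authors' deposited value table, also an intensity on a linear scale, equalled the processed signal over the array's 75th percentile times a constant, within 1 unit for all 62976 values per array. The medians of its columns were 6, 7 and 7 (young) and 9, 7 and 6 (old).

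Controls and 161 to 212 outlier spots on each array were dropped. Spots of 1 probe were averaged as log2 values, and the array's 75th percentile over gene probes was then subtracted. Of 55681 probes, 28331 matched 1 symbol of the RefSeq table and 27350 kept the file's name. Each gene was read from its kept probe with the highest mean. The ages were tested in R 4.3.3 with limma 3.58.1 (two-sided), adjusted by Benjamini-Hochberg over 20906 genes, and isoform pairs by exact permutation with scipy 1.17.1. The fit was tested on simulated data. All arrays shared 1 slide, in rows 1 and 2. Alternatives were other normalizations, background correction (normexp on the median spot signal), filters, probe rules, variance models, blocks and leaving out each array.

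The members, the other lists and the pairs were chosen with earlier results of these data known. Values on every array are given for the members of pairs and the 6 members with the lowest p, and outside the members the 3 genes with the lowest p in each list are named, except some that are not reported here.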

Additional observations from a re-analysis of the deposited data

How the results depend on the processing

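Of the 18 alternatives, 17 gave a value for each member, and in none of those did a member pass limma's adjusted threshold except Eno1 without old replicate 1. The sign held for 20 of 33 members and turned in 25 of 561 combinations of member and alternative. Aldoa is counted as holding, although its value with quantile normalization, -3.1e-15, had no sign beyond rounding. The members were read by gene, so fitting every probe gave counts over 53 probes, 43 negative and 14 without overlap. Quantile normalization gave a median of -0.094 and 5 members without overlap, 2 above and 3 below young, beside 1788 and 2786 of 20906 genes. Median centring gave a median of -0.38. Genes past the threshold were 53 as reported, 8 with no filter, 35 when a probe had to exceed background on each of the 6 arrays, and 194 with array weights. Leaving out one array gave 1 to 186 genes (the highest without old replicate 1, the lowest without old replicate 3), 0 to 1 members, 12 to 15 members and 2 to 4 isoform pairs without overlap, and medians from -0.28 to -0.15. Without old replicate 1, 3 members lay wholly above young and 10 wholly below, beside 15% and 23.5% of all genes. For the other arrays left out, the pairs and the 53 probes, no share over all genes or probes was taken. Fewer arrays overlap less often by construction.

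Signs turned with quantile normalization for Pkm (0.081) and Ldha (0.039), and with median centring for Gpd2 (-0.027). With the slide row as a block, which leaves old replicate 1 as the only old array compared with its row, they turned for Pfkl (0.034), Pgam1 (-0.15), Eno1 (-0.24), Ldhb (0.39), Gpd2 (-0.15), Pygb (0.40), Gys1 (0.53), Ugp2 (0.019), Pfkfb3 (0.043) and Pfkfb4 (-0.28). Leaving out one array gave -0.27 to 0.058 for Pkm, -0.56 to 0.18 for Pygb, -0.96 to 0.040 for Pfkfb3, -0.41 to 0.030 for Pgam2, -0.22 to 0.017 for Ldha, -0.54 to 0.048 for Gys1 and -0.18 to 0.41 for Pfkfb4. Beyond what is said above of fewer arrays and the slide row, the cause was not tested.

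The replicate numbers did not pair the arrays. Deviations of same-numbered arrays from their age means correlated at -0.06, -0.27 and 0.03, and no array correlated best with its own number. With the number as a replicate block 5 genes and 0 members passed.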

Other observations

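Some members had one young array far from the others, chosen here after their values were seen. A probe of Ldha read 8.29, 7.86 and 5.83 on young replicates 1 to 3 and 7.28 to 8.02 on the old arrays, the dimmer probe of Phkb read 1.47, 1.16 and -0.10, and Pygb read -1.09, -1.20 and -2.57. In each, young replicate 3 was the lowest of the 6 arrays. The fast light chain Mylpf, a marker of fast fibres and no member, read 4.93, 4.52 and 1.955 in young against 4.97 to 5.20 in old muscle. Its old values lay above all young values on every array, and the size of its difference, 1.29 ± 0.73, rested largely on young replicate 3. The probes named for these genes may read different transcripts, which was not tested.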
